A study of Homo sapiens with 42 samples.

Results

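The 10 genes described here encode chaperones and sensors of endoplasmic reticulum (ER) stress, namely HSPA5, HSP90B1, DNAJB9, HERPUD1, XBP1, EDEM1, SDF2L1, ATF6, ERN1 and EIF2AK3. Each was taken as the array entry that carries its symbol alone, with the highest mean over all arrays where a gene had several. All 10 were measured, by 1 entry each, among 18404 genes. Messenger RNA was measured on 42 single-colour Affymetrix arrays in 2 human lung cancer cell lines, H460 (labelled a large-cell carcinoma, called radiosensitive in the design text) and H1299 (called radioresistant). Of each line, 6 arrays show cells that were not yet irradiated (0 h) and 3 per time point show cells 2, 4, 8, 12 or 24 h after 2 Gy of gamma radiation from a linear accelerator, all labelled as biological replicates. Both lines grew as monolayers with fetal bovine serum, and all cells were growing exponentially when irradiated. The protocol mentions unirradiated control cells, but no array is labelled as an unirradiated culture of a later hour, so hours after irradiation and hours in culture cannot be told apart.

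Secreted and membrane proteins fold in the ER with the help of chaperones, and 3 membrane sensors watch over this folding. ATF6 is cut in the Golgi and its fragment switches on chaperone genes, ERN1 (IRE1 alpha) splices the XBP1 messenger so that it encodes an active transcription factor, and EIF2AK3 (PERK) phosphorylates the initiation factor eIF2 alpha. The third arm slows translation and raises translation of ATF4, but other kinases, which answer to amino acid shortage, haem shortage or double-stranded RNA, phosphorylate the same factor. ATF4 targets can therefore rise without ER stress, whereas chaperone and ER degradation genes are the classical read-out of ATF6 and spliced XBP1. The question for these genes was whether they moved with the ATF4 targets after irradiation. Splicing of XBP1, cleavage of ATF6 and phosphorylation of the kinases are not seen by these arrays.

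RefSeq promoter windows (GRCh38.p14), each from 250 bases before to 50 bases after a gene's start, were searched on both strands for sites of these factors. ERSE, CCACG, the UPRE core and the ATF4 composite element were fixed with the design, and ERSE-II and CCAAT were added after these promoters had been read. The ER stress response element (ERSE), which is CCAAT and CCACG with 9 free bases between them, is the classical site of NF-Y with ATF6 or XBP1. It was found in 27 of 35093 windows (0.0769%), among them those of HSPA5, HSP90B1 (2 matches) and XBP1, which had another window without a match. ERSE-II, which is ATTGG and CCACG with 1 free base between them, was found in 19 windows (0.0541%), among them those of HERPUD1 and SDF2L1. The composite element of ATF4 with a C/EBP partner, TGATGNAA, was found in 1270 windows (3.62%), among the members in HERPUD1 alone. The UPRE core TGACGTGG was in 256 windows (0.729%) and in none of the members. The component sites were common: CCACG, which lies within ERSE and ERSE-II, was in 38.1% of windows and in those of 8 of 10 members, and CCAAT, which also lies within ERSE and, read on the other strand, overlaps ERSE-II, was in 34.6% of windows and in those of 9 of 10 members. ERSE was in 6 of 27 promoters of the other ER chaperones and ERSE-II in 1 of them (HYOU1), while both were in 0 of 26 promoters of other ER degradation genes, 0 of 17 of other ER signalling genes and 0 of 37 of ATF4 targets. The ATF4 composite element was in 15 of those 37. A match describes the letters in the window and does not show binding.

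The 250 bases before the start are printed for the 5 members that held ERSE or ERSE-II, because these members differ in which motif they carry. Capitals mark ERSE, ERSE-II or the ATF4 composite element. They come from chr9:125241344-125241593 on the minus strand for HSPA5, chr12:103930160-103930409 on the plus strand for HSP90B1, chr22:28800570-28800819 on the minus strand for XBP1, chr16:56931892-56932141 on the plus strand for HERPUD1 and chr22:21642052-21642301 on the plus strand for SDF2L1.
HSPA5: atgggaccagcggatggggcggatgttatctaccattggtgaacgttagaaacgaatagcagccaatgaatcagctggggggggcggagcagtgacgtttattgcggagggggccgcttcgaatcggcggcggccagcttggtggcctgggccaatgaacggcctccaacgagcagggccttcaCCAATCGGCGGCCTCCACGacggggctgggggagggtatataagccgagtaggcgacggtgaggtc
HSP90B1: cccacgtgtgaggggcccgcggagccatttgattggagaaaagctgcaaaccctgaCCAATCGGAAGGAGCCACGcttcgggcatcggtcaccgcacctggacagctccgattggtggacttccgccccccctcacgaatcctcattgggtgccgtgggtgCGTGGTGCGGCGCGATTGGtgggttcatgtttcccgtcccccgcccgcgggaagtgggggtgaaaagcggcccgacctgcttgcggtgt
XBP1: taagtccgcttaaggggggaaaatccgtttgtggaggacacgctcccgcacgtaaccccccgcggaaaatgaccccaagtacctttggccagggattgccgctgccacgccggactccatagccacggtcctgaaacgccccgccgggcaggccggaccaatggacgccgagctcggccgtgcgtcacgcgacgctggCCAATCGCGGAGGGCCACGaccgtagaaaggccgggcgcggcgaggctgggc
HERPUD1: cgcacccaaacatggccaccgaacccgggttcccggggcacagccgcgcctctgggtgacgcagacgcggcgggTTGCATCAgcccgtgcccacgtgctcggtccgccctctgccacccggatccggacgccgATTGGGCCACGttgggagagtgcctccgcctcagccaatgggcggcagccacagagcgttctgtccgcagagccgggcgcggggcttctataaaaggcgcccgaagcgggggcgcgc
SDF2L1: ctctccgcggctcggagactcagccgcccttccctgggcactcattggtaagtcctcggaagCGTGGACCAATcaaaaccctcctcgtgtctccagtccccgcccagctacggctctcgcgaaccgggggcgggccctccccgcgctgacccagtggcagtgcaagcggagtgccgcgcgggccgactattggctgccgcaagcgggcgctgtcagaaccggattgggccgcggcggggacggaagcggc
The HSPA5 match begins at position -66 and the XBP1 match at -52, with the start at position 1 and no position 0. HSP90B1 has 1 match on the plus strand from -194 and 1 on the minus strand from -89, and in HERPUD1 the minus-strand ATF4 composite element (from -176) precedes ERSE-II (from -117).

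Values are the deposited log2 intensities, which ran from 1.45 to 14.2 over the table. A change is the difference of a time point's mean from the 0 h mean of the same line, with its standard error (SE) from limma fitted to all genes over the line's 21 arrays. A gene is called risen or fallen where its adjusted p (limma, Benjamini-Hochberg over 18404 genes, two-sided) was under 0.05. Where all arrays of a time point lay above or below every 0 h array, this is also given. Of all genes, 10.2%, 2.77%, 13.2%, 15.7% and 15.7% lay so above in H460 at 2, 4, 8, 12 and 24 h. The shares below were 12.3%, 4%, 8.27%, 13.7% and 10.5%. In H1299 the shares above were 4.97%, 11.6%, 15.3%, 15.4% and 9.4%, and those below 6.66%, 7.52%, 9.47%, 10.9% and 3.97%. RNA came from whole cultures, so a change in RNA per cell and a change in the share of cells that express a gene cannot be told apart. Because levels of different array entries depend on their probes, no level is set against another gene's. The epithelial keratins KRT8 and KRT18 read 12.18 and 12.18 in H460 and 10.81 and 12.12 in H1299 at 0 h, whereas EPCAM, also a marker of epithelial cells, read 3.97 and 3.67. KRT19, another epithelial keratin, read 11.36 in H460 and 5.23 in H1299. CD68, counted among the blood cell markers, read 8.78 and 9. Of 11 markers of epithelial, stromal and blood cells, 2 (CD3E and COL1A2) rose in H460 at 2 h, 1 (COL1A2) fell at 8, 12 and 24 h and 2 (KRT19 and LUM) rose at 24 h, while 0 were called at 4 h (limma; 1 at an unadjusted p under 0.05). In H1299 2 (CD68 and KRT8) fell at 2 h, 1 (KRT18) at 4 and 8 h and 1 (CD68) at 12 h, with 0 called at 24 h (limma; 1 at an unadjusted p under 0.05). Their part in the results was not tested.

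The spread of values within an array moved with time. The interquartile range (array width) averaged 3.34 in H460 at 0 h, fell to 2.84 at 2 h, and was 3.34, 3.64, 3.67 and 3.64 at 4, 8, 12 and 24 h. In H1299 it was 3.58 at 0 h and then 3.53, 3.66, 3.81, 3.82 and 3.67. In H460 the arrays at 2 h stand apart on this measure, with 2.75 to 2.97 against 3.14 to 3.63 at 0 h. For the members, results are therefore given below with array width added to the model wherever this ends a call. For the other gene lists, counts with width are given only in H460 at 24 h. With width 0 of 18404 genes were called in H460 at 2 h, so every call of a change from 0 h at that hour was lost. In such a model the time points and the width share information, and whether width changed the measurements was not tested. Quantile normalization, which gives all arrays the same width, ended the calls of HSP90B1 in H460 at 8 h (0.04) and 12 h (0.1), XBP1 at 8 h (0.13), ATF6 at 2, 8, 12 and 24 h (-0.06, 0.12, 0.17 and 0.16) and EIF2AK3 at 8 h (0.36), and those of DNAJB9 in H1299 at 8 h (-0.3) and 12 h (-0.28) and of EIF2AK3 there at 12 h (0.27). It also ended the call of the difference between the lines for XBP1 at 12 h (0.28, adjusted p = 0.0836) and the quadratic calls of SDF2L1 and EIF2AK3 in H460 and DNAJB9 in H1299 that are given further on.

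In H460 most of the members rose at 8, 12 and 24 h, but most of these calls were lost with array width in the model. At 8 h 6 of 10 were called up and 0 down, where 10.7% of all genes rose and 6.22% fell. By 12 h 7 of 10 had risen and 0 had fallen, against 16.7% and 16.8% of all genes, and at 24 h the counts were 6 and 0, against 16.2% and 12.4%. The median change of the members was 0.27, 0.41 and 0.43 on the log2 scale at these times, beside -0.03, -0.04 and -0.05 for all genes. All genes are an unlike background in 1 respect, their relation to array width within groups of arrays. In H460 the members' slopes ran from -0.24 (ERN1) to 1.01 (HERPUD1) log2 units per unit of width, beside a median of 0.04 for all genes. What this adds to the difference was not tested. With array width in the model 0 members were called at 2, 8 and 12 h and 4 were called up at 24 h. The same model called few of all genes at the earlier hours: 0% at 2 h, 0.397% up and 0.321% down at 8 h, and 1.6% and 1.81% at 12 h. At 24 h it called 4.4% of all genes up and 4.01% down. At 8 h quantile normalization left 2 members called, and leaving out 1 array at a time gave 2 to 7. Earlier, 3 of 10 had fallen and 0 risen at 2 h (23.7% and 16.7% of all genes), and 0 were called in either direction at 4 h (1.37% rose and 1.55% fell), where 0 members reached an unadjusted p under 0.05 in limma and 1 was called when arrays were weighted by quality.

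H1299 showed another order of events. At 4 h 3 of 10 had fallen and 0 risen (5.83% and 10% of all genes), and at 8 h 3 had fallen and 1 had risen (9.54% and 15%). At 12 h 2 had fallen and 2 had risen (13.1% and 16.6%), while at 24 h 4 had risen and 0 fallen (8.53% and 3.21%). At 2 h 1 of 10 had fallen and 0 risen (7.93% and 5.88%). The median change of the members was -0.11, -0.07, -0.08 and -0.09 from 2 to 12 h and 0.18 at 24 h, beside -0.02, -0.03, -0.04, -0.06 and 0 for all genes.

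**Figure D1:**
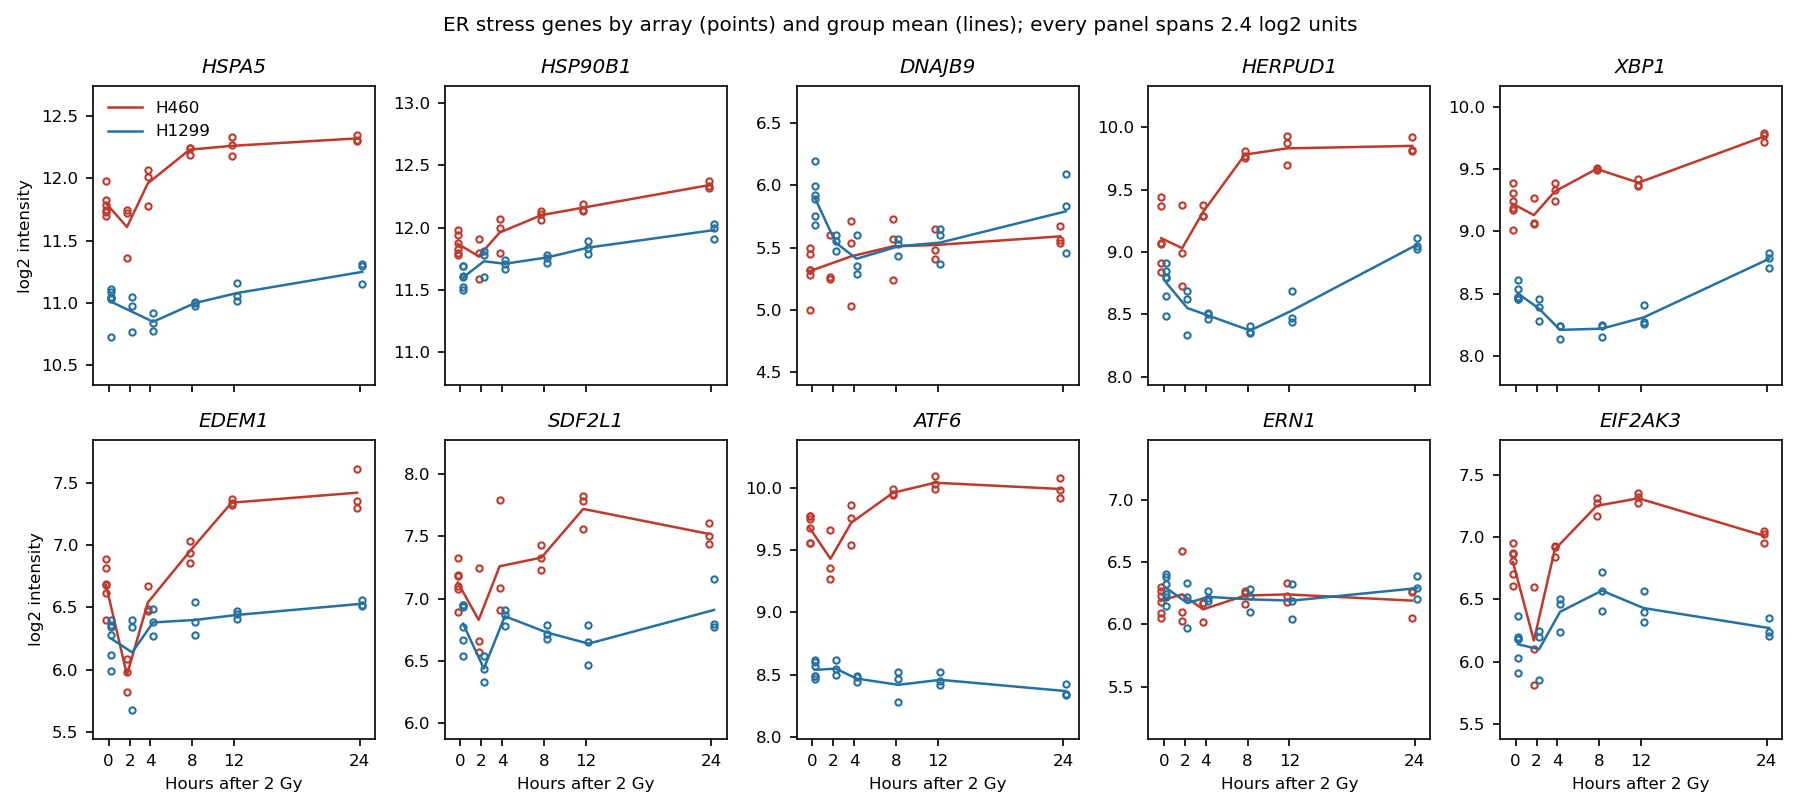
Log2 intensity of each of the 10 genes against hours after 2 Gy, with 1 point per array, lines through the group means, H460 in red and H1299 in blue, and every panel spanning the same height. In H460, HSPA5, HERPUD1, EDEM1 and ATF6 climb between 2 h and 12 h, while in H1299 HERPUD1 and XBP1 dip until 8 h and are highest at 24 h.

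HSPA5 (BiP) is the major Hsp70 chaperone of the ER, which holds the stress sensors inactive until unfolded proteins draw it away. In H460 its 6 arrays at 0 h lay between 11.7 and 11.98 (median 11.77). The 3 arrays read 11.72, 11.75 and 11.36 at 2 h, 12.07, 11.78 and 12.01 at 4 h, and 12.24, 12.24 and 12.19 at 8 h. From 8 h onward every array was above all 0 h arrays: the values were 12.27, 12.18 and 12.33 at 12 h and 12.35, 12.31 and 12.3 at 24 h. The rise was 0.43 at 8 h (SE 0.0872, adjusted p = 0.00237), 0.46 at 12 h and 0.52 at 24 h (SE 0.0872, adjusted p = 7.46e-05), which is 1.44-fold. Array width in the model left 0.29 at 8 h (adjusted p = 0.333), 0.31 at 12 h (0.161) and 0.38 at 24 h (0.0307), so that only the last remained a call.

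In H1299 HSPA5 lay between 10.73 and 11.11 at 0 h (median 11.05), with replicate 2 the lowest array. It read 10.84, 10.78 and 10.92 at 4 h and 10.98, 11 and 11.01 at 8 h, within the range of the 0 h arrays. The change of -0.16 at 4 h was not called (adjusted p = 0.155), but without the 0 h replicate 2, whose array width was 3.24 against 3.57 to 3.69 in the other 0 h arrays, it was a fall of 0.22 on the log2 scale (adjusted p = 0.00902). It was also called with quantile normalization (-0.19, 0.00854), array weights (-0.21, 0.002), array width (-0.23, 0.00208) or the 0 h replicates 4 to 6 alone (-0.22, 0.0333), and with array width the 8 h change was called too (-0.19, 0.0341). At 24 h the 3 arrays read 11.3, 11.15 and 11.31, all above that range, a rise of 0.25 (SE 0.0743, adjusted p = 0.0309). This small rise was no longer called without the 24 h replicate 1 (0.22, adjusted p = 0.14) or replicate 3 (0.22, 0.151), nor after centring each array on its median (0.21, 0.102).

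HSP90B1 (GRP94) is the Hsp90 chaperone of the ER lumen. It rose at 24 h in both lines, by 0.47 in H460 (SE 0.0788, adjusted p = 7.4e-05) and 0.38 in H1299 (SE 0.0585, adjusted p = 8.54e-05). The H460 arrays read 12.33, 12.37 and 12.32 at 24 h, against 11.78 to 11.98 at 0 h (median 11.86). The H1299 arrays read 12, 11.91 and 12.03 at 24 h, against 11.5 to 11.69 at 0 h (median 11.61). In both lines the 24 h arrays were all above the 0 h arrays, and both calls remained with array width in the model (0.37 and 0.34). The difference between the 2 rises was 0.09, with a 95% confidence interval from -0.1 to 0.28 (adjusted p = 0.559). Its earlier rises were smaller, in H460 0.23 at 8 h and 0.29 at 12 h, in H1299 0.23 at 12 h. Array width in the model ended these 3 calls (0.13, 0.17 and 0.14, adjusted p of at least 0.0923). The H460 call at 8 h (adjusted p = 0.0446) was lost without any 1 of 14 of the arrays, among them each of the 8 h arrays (at most 0.147).

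DNAJB9 (ERdj4), a J-domain partner of HSPA5 that takes part in ER-associated degradation and holds ERN1 in check, was the member that fell furthest in H1299. Its 0 h arrays in H1299 lay between 5.68 and 6.19 (median 5.9). At 4 h they read 5.29, 5.6 and 5.35, at 8 h 5.43, 5.57 and 5.53, and at 12 h 5.37, 5.6 and 5.65. All of these were below every 0 h array. The changes were -0.49 at 4 h (SE 0.123, adjusted p = 0.00662), -0.39 at 8 h (0.0221) and -0.36 at 12 h (0.0281). At 2 h the arrays read 5.47, 5.55 and 5.6, also below every 0 h array, but the change of -0.36 missed the threshold (0.0519). It was called with array weights (-0.36, 0.023) or array width (-0.34, 0.0394). At 24 h the arrays read 5.83, 6.09 and 5.46 and overlapped those at 0 h (change -0.11, adjusted p = 0.678). The call at 4 h was lost without the 4 h replicate 1 (adjusted p = 0.0603), that at 8 h without the 8 h replicate 1 (0.0888) or 3 (0.0664), and that at 12 h without the 0 h replicate 5 (0.0607) or the 12 h replicate 1 (0.15) or 2 (0.0619). In H460 no change of DNAJB9 passed the test: the values ran from 0.06 at 2 h to 0.28 at 24 h (SE 0.145, adjusted p = 0.151). Its values were low in both lines, and without detection calls no level of background could be set.

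SDF2L1, a cofactor of HSPA5 and its J-domain partners, changed in 1 comparison per line. In H460 its arrays at 12 h read 7.56, 7.78 and 7.82 and lay above the 0 h range of 6.89 to 7.33 (median 7.14), a rise of 0.59 (SE 0.154, adjusted p = 0.00559). With array width the size was 0.61 but the adjusted p was 0.154. At 24 h the change of 0.39 missed the threshold (adjusted p = 0.0575). In H1299 it fell at 2 h, with 6.44, 6.54 and 6.33 against 6.54 to 6.95 at 0 h (change -0.36, SE 0.102, adjusted p = 0.018). The last call was lost without the 2 h replicate 3 (-0.31, adjusted p = 0.121).

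HERPUD1 (HERP), a membrane protein that organises the degradation complex, had the largest difference between the lines in its change from 0 h. In H460 its 0 h arrays lay between 8.84 and 9.44 (median 9.06), and it read 9.38, 9.29 and 9.29 at 4 h. The arrays read 9.81, 9.77 and 9.75 at 8 h, 9.93, 9.87 and 9.7 at 12 h, and 9.81, 9.92 and 9.82 at 24 h. Every array from 8 h onward was above all 0 h arrays, and the means were 9.78, 9.83 and 9.85. The rise was 0.66 at 8 h (SE 0.125, adjusted p = 0.00123), 0.72 at 12 h and 0.73 at 24 h (1.66-fold, adjusted p = 9.84e-05). Of the members HERPUD1 had the steepest relation to array width in H460 (1.01 log2 units per unit of width), and with width in the model the changes were 0.36 (adjusted p = 0.387), 0.39 (0.203) and 0.43 (0.081).

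In H1299 HERPUD1 first fell and then rose. Its 0 h arrays lay between 8.49 and 8.91 (median 8.8). The arrays read 8.5, 8.51 and 8.46 at 4 h, 8.36, 8.35 and 8.41 at 8 h, 8.47, 8.44 and 8.69 at 12 h, and 9.02, 9.11 and 9.05 at 24 h. The arrays at 8 h were below all 0 h arrays and those at 24 h above them. The change was -0.26 at 4 h (SE 0.0828, adjusted p = 0.0324), -0.38 at 8 h (adjusted p = 0.00162) and 0.31 at 24 h (adjusted p = 0.0137). The call at 4 h was lost without 4 of the 0 h arrays (replicates 1, 3, 4 or 5) or any of the 4 h arrays in turn (adjusted p up to 0.125), and that at 24 h without the 24 h replicate 2 (0.28, adjusted p = 0.0727). All 3 calls were kept with array width in the model.

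EDEM1, a lectin that hands misfolded glycoproteins to degradation, had the largest fall and the largest late rise of the members in H460. It lay between 6.4 and 6.89 at 0 h (median 6.69). The arrays read 5.98, 6.09 and 5.82 at 2 h, 6.47, 6.49 and 6.67 at 4 h, 7.03, 6.94 and 6.86 at 8 h, 7.34, 7.37 and 7.32 at 12 h, and 7.35, 7.61 and 7.3 at 24 h. The 2 h arrays were below, and the 12 h and 24 h arrays above, all 0 h arrays. The change was -0.72 at 2 h (SE 0.111, adjusted p = 7.75e-05), 0.66 at 12 h (0.000134) and 0.74 at 24 h (2.09e-05). With array width in the model the 2 h change was -0.31 (adjusted p = 0.662) and the 12 h change 0.39 (0.128), whereas 0.49 remained called at 24 h (0.0184). In H1299 no change of EDEM1 passed the test, and the largest was 0.28 at 24 h (SE 0.121, adjusted p = 0.151), with 6.51, 6.52 and 6.56 against 5.99 to 6.4 at 0 h.

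XBP1, the transcription factor that ERN1 activates by splicing, moved in opposite directions in the lines at 8 h. In H460 its 0 h arrays lay between 9.01 and 9.39 (median 9.21), and it read 9.51, 9.49 and 9.5 at 8 h, 9.36, 9.42 and 9.37 at 12 h and 9.77, 9.79 and 9.72 at 24 h. The arrays at 8 h and 24 h were above those at 0 h. The rise was 0.28 at 8 h (SE 0.0856, adjusted p = 0.0268) and 0.54 at 24 h (adjusted p = 4.1e-05), while 0.17 at 12 h was not called (0.131). The 8 h call was lost when any of the 8 h arrays was left out (adjusted p from 0.0845 to 0.102) and with array width in the model (0.19, 0.649), whereas the 24 h call was kept with width (0.44, 0.0116).

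In H1299 the 0 h arrays of XBP1 lay between 8.46 and 8.61 (median 8.47). They read 8.14, 8.24 and 8.24 at 4 h, 8.24, 8.15 and 8.25 at 8 h, 8.41, 8.27 and 8.26 at 12 h and 8.83, 8.79 and 8.71 at 24 h. The first 3 of these groups were below, and the last above, all 0 h arrays. XBP1 fell at 4 h (-0.29, SE 0.0604, adjusted p = 0.0012), 8 h (-0.29, 0.00111) and 12 h (-0.19, 0.0203) and rose at 24 h (0.28, 0.0031). The 12 h call was lost without the 12 h replicate 2 (0.109) or 3 (0.0953) and with array width in the model (-0.15, 0.155); the other 3 were kept with width.

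The mRNAs of the 3 sensors did not move as one group. ATF6 rose in H460, from a 0 h range of 9.56 to 9.77 (median 9.71) to 9.99, 9.95 and 9.94 at 8 h, 9.99, 10.03 and 10.09 at 12 h and 9.98, 10.08 and 9.92 at 24 h. Each of these arrays was above all 0 h arrays. The changes were 0.28 (SE 0.0927, adjusted p = 0.0412), 0.36 (0.0054) and 0.31 (0.0139), after a change of -0.25 at 2 h (0.0339). With array width they were 0.12, 0.18 and 0.15, with adjusted p of at least 0.506, and the 2 h change was 0.02. The 8 h call was lost without any 1 of 10 of the arrays (each 8 h array among them, adjusted p up to 0.147), the 24 h call without the 24 h replicate 2 (0.0956), and the 2 h call without the 0 h replicates 3, 4 or 6 or the 2 h replicates 2 or 3 (up to 0.195). In H1299 no change of ATF6 passed the test. Its 24 h arrays (8.35, 8.43 and 8.34) were below the 0 h range of 8.47 to 8.62, a change of -0.17 (SE 0.0604, adjusted p = 0.0732). This fall was called with quantile normalization (-0.22, 0.0102), centring on the median (-0.2, 0.044), array weights (-0.18, 0.025) or array width (-0.19, 0.024). It was also called without the 0 h replicate 2 (-0.18, 0.0469). Quantile normalization called falls at 8 h (-0.2, 0.0112) and 12 h (-0.16, 0.0354) too.

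No change of ERN1 from 0 h passed the test. The 10 changes lay between -0.11 and 0.06, their 95% confidence intervals within -0.3 to 0.29, and the arrays of every time point overlapped those at 0 h. Its quadratic time course gave an adjusted p of 0.945 in H460 and 0.505 in H1299.

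EIF2AK3 (PERK), the sensor upstream of ATF4, was highest at 8 to 12 h in both lines. In H460 it lay between 6.61 and 6.95 at 0 h (median 6.84) and read 6.6, 6.1 and 5.81 at 2 h, 7.31, 7.27 and 7.17 at 8 h, 7.27, 7.32 and 7.35 at 12 h and 7.02, 6.95 and 7.05 at 24 h. The 2 h arrays were below, and the 8 h and 12 h arrays above, the 0 h arrays. The change was -0.63 at 2 h (SE 0.122, adjusted p = 0.000469), 0.45 at 8 h (0.0145) and 0.52 at 12 h (0.00273), but 0.21 at 24 h was not called (0.202). With array width these 3 calls were lost (-0.17, 0.18 and 0.22, adjusted p of at least 0.521), and the 8 h call was also lost without the 8 h replicate 1 (0.0786) or 2 (0.0614).

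In H1299 EIF2AK3 lay between 5.91 and 6.37 at 0 h (median 6.18) and read 6.57, 6.41 and 6.72 at 8 h, above that range. The rise was 0.42 at 8 h (SE 0.107, adjusted p = 0.00524) and 0.29 at 12 h (0.0444), and 0.12 at 24 h was not called (0.578). The 8 h call was lost without the 8 h replicate 3 (0.0605), the 12 h call without any 1 of 8 of the arrays (up to 0.236), and both with array width in the model (0.22, 0.177, and 0.08, 0.708).

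The shape over all hours was tested by quadratic regression on time, the model named in the design text. In H460 it called 8 of 10 members, of which 7 had a rise as their largest change and 1 a fall, against 20.5% and 21.4% of all genes. DNAJB9 (adjusted p = 0.177) and ERN1 were not called, and EIF2AK3 was the member whose largest change was the fall at 2 h. In H1299 it called 6 of 10, of which 3 (HSPA5, HSP90B1 and EIF2AK3) had a rise as their largest change and 3 (DNAJB9, HERPUD1 and XBP1) a fall, against 19.9% and 16.6%. The smallest adjusted p among the members was 2.06e-06 for XBP1 in H1299. With array width in the model 5 of 10 were called in each line: SDF2L1 (adjusted p = 0.378), ATF6 (0.375) and EIF2AK3 (0.154) were lost in H460 and EIF2AK3 (0.511) in H1299. The share of all genes called in that model is not given here. Quantile normalization ended the calls of SDF2L1 (0.106) and EIF2AK3 (0.0578) in H460 and of DNAJB9 in H1299 (0.0817), and called DNAJB9 in H460 (0.0418) and ATF6 in H1299 (0.00278). With the square root of hours as time the H460 call of EIF2AK3 was lost too (0.138).

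**Figure D2:**
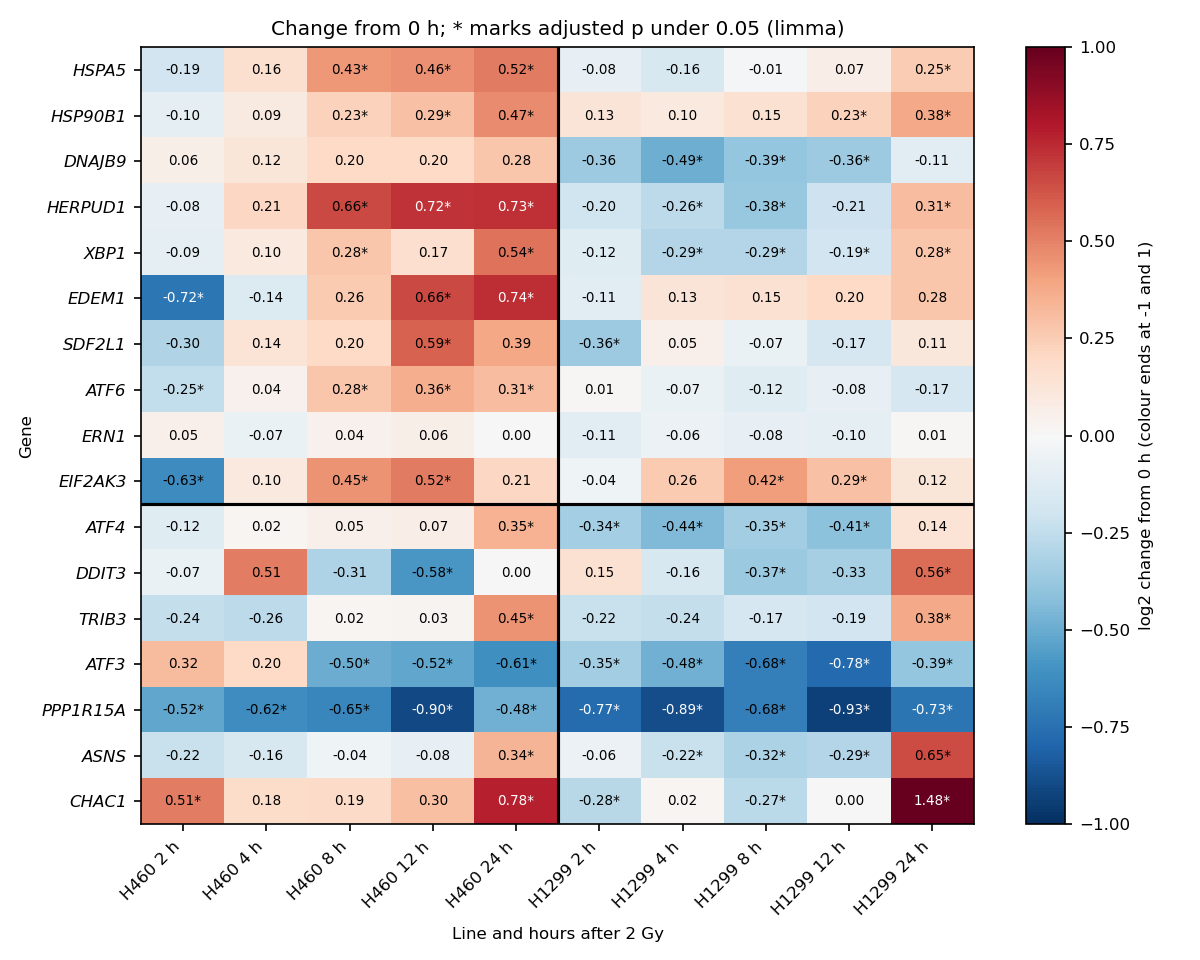
Log2 change from 0 h of the 10 members (above the line) and of ATF4 and 6 of its targets (below it) in each line and at each hour, with red for a rise, blue for a fall and an asterisk where the adjusted p was under 0.05. HERPUD1 reads 0.66, 0.72 and 0.73 in H460 at 8, 12 and 24 h but -0.38 in H1299 at 8 h, and CHAC1 reaches 1.48 in H1299 at 24 h.

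The targets of ATF4 were counted at the same hours. Shares of all genes stand in parentheses. Of 42 measured targets, 3 had risen and 20 fallen in H460 at 2 h (16.7% and 23.7%) and 3 and 3 at 4 h (1.37% and 1.55%). In H1299 2 had risen and 7 fallen at 2 h (5.88% and 7.93%) and 6 and 5 at 4 h (10% and 5.83%). Later, 6 had risen and 3 fallen in H460 at 8 h (10.7% and 6.22%), 14 and 4 at 12 h (16.7% and 16.8%), and 23 and 3 at 24 h (16.2% and 12.4%). The median changes were 0.11, 0.2 and 0.34. In H1299 12 had risen and 8 fallen at 8 h (15% and 9.54%), 13 and 5 at 12 h (16.6% and 13.1%), and 35 and 2 at 24 h (8.53% and 3.21%). There the medians were 0.02, 0.02 and 0.43. The same comparison for the members was 6, 7 and 6 risen of 10 in H460 and 1, 2 and 4 in H1299. In H1299 at 24 h the targets called up were thus 83.3% of their list and the members called up 40%; in H460 at 24 h the shares were 54.8% and 60%. These shares describe the lists, and the difference between lists was not tested. With array width in the model, 10 targets (of 42) rose and 2 fell in H460 at 24 h, beside 4.4% and 4.01% of all genes in the same model.

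Among the targets, ASNS (asparagine synthetase) rose at 24 h in both lines, by 0.34 in H460 (adjusted p = 0.00986) and 0.65 in H1299 (1.36e-07), after falls in H1299 at 4, 8 and 12 h. CHAC1, a glutathione-degrading enzyme, rose by 0.78 in H460 (0.000286) and 1.48 in H1299 (3.15e-11) at 24 h. TRIB3, a pseudokinase that ATF4 and DDIT3 induce, rose by 0.45 (0.00744) and 0.38 (0.00442). DDIT3 (CHOP), the pro-apoptotic factor of the PERK arm, rose in H1299 at 24 h (0.56, 0.00451), with arrays that overlapped those at 0 h, after a fall there at 8 h (-0.37, 0.0353), and in H460 fell at 12 h (-0.58, 0.00945), with a change of 0 at 24 h (0.986).

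Some targets did not follow the list. PPP1R15A (GADD34), which guides the phosphatase of eIF2 alpha, fell in all 10 comparisons, with changes from -0.93 to -0.48, and ATF3 fell in both lines at 8, 12 and 24 h, reaching -0.61 in H460 at 24 h and -0.78 in H1299 at 12 h. DDIT4 and SESN2 rose early in H460: by 0.87 (0.00173) and 0.43 (0.0255) at 4 h, when 0 members were called. Whether ATF4 or another factor raised DDIT4 and SESN2 was not tested. In H1299 at 4 h DDIT4 and SESN2 changed by 0.51 (0.00682) and -0.01 (0.95). CTH, an enzyme of cysteine synthesis, reached 2.32 in H460 at 24 h (3.66e-12) and 0.51 in H1299 (0.00505).

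ATF4 itself is controlled mostly through its translation, so its mRNA is a weak guide to its activity. In H1299 its mRNA fell at 2, 4, 8 and 12 h (changes of -0.34, -0.44, -0.35 and -0.41, adjusted p at most 0.00142) and was back at 24 h (0.14, 0.196). In H460 it rose at 24 h (0.35, 0.00262), but a second array entry for ATF4 gave -0.42 there (0.0876), so this direction depends on the entry. Of the other kinases of eIF2 alpha, EIF2AK4 (GCN2), which senses uncharged tRNA, rose in H460 at 12 h (0.3, 0.0267) and 24 h (0.29, 0.0315) and in H1299 at 12 h (0.22, 0.0268). EIF2AK2 (PKR) rose in H1299 at 2, 4 and 12 h (0.25, 0.28 and 0.27, adjusted p at most 0.0168), EIF2AK1 rose there at 4 and 8 h (0.17 and 0.16, at most 0.0357), and PPP1R15B, the constitutive partner of the phosphatase, rose there at 4, 8 and 12 h (0.33, 0.28 and 0.31, at most 0.0164) after a fall at 2 h (-0.27, 0.0307), and rose in H460 at 12 h (0.33, 0.0259). In H460 at 2 h these 4 had fallen, with changes of -0.43 for EIF2AK4 (0.00219), -0.35 for EIF2AK1 (0.0243), -0.45 for EIF2AK2 (0.00591) and -0.44 for PPP1R15B (0.00373). Of all genes 23.7% were called down at that hour, and with array width in the model 0 of 18404 genes were called.

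Other ER chaperone and degradation genes also rose in H460 in the model without array width. With width 0.397% of all genes were called up at 8 h and 1.6% at 12 h. The counts of these lists with width at those hours are not given here. Of 28 other ER chaperones and folding enzymes, 12 were called in either direction in H460 at 2 h (40.4% of all genes) and 0 at 4 h. For DNAJC10 and UGGT1 the largest change in H460 was that at 2 h (-0.69 and -0.39). At 8, 12 and 24 h 14, 18 and 19 had risen (10.7%, 16.7% and 16.2% of all genes) and 0 had fallen (6.22%, 16.8% and 12.4%). Medians were 0.25, 0.39 and 0.44. Those that rose included CALR (calreticulin, 0.83 at 24 h, adjusted p = 8.16e-08), DNAJB11 (0.75, 5.34e-06), HYOU1 (0.68, 4.33e-06) and FKBP7 (0.93, 8.06e-06), a prolyl isomerase of the ER. In H1299 8 had risen and 2 fallen at 8 h (15% and 9.54% of all genes), and 10 and 2 at 12 h (16.6% and 13.1%). At 24 h it was 6 and 1 (8.53% and 3.21%), with a median of 0.13. There CALR, DNAJB11 and HYOU1 changed by 0.15, 0.21 and 0.13 at 24 h (adjusted p at least 0.119), whereas DNAJC10, a disulphide reductase, rose from 2 h onward and by 0.65 at 12 h (2.98e-05).

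Of 29 other genes of ER-associated degradation and ER translocation, 11 were called in either direction in H460 at 2 h (40.4% of all genes) and 0 at 4 h. At 8, 12 and 24 h 8, 13 and 8 had risen (10.7%, 16.7% and 16.2% of all genes) and 0 had fallen (6.22%, 16.8% and 12.4%). EDEM2 (0.98, 1.12e-06), ERLEC1 (0.76, 2.3e-05) and OS9 (0.51, 2.14e-05), which take part in the degradation of misfolded glycoproteins, had risen at 24 h. In H1299 they changed by 0.02, 0.03 and 0. There the list had 5 risen and 5 fallen at 8 h (15% and 9.54% of all genes). It had 5 and 6 at 12 h (16.6% and 13.1%) and 2 and 0 at 24 h (8.53% and 3.21%). EDEM3 rose there from 4 h onward (0.8 at 12 h, 7.67e-08) and SEL1L, the scaffold of the degradation ligase, from 2 to 12 h (0.54 at 12 h, 1.19e-05), while SELENOK fell from 2 to 12 h (-0.52 at 12 h, 1.85e-06).

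Of 15 other regulators of ER stress signalling, 7 were called in either direction in H460 at 2 h (40.4% of all genes) and 0 at 4 h. At 8, 12 and 24 h 1, 3 and 1 had risen and 0 had fallen. The share of 6.67% at 8 h and 24 h lay below the 10.7% and 16.2% of all genes. MBTPS1, the site 1 protease that first cuts ATF6, rose there by 0.67 at 12 h (2.3e-05) and 0.77 at 24 h (1.69e-06). In H1299 it rose by 0.21, 0.24 and 0.3 at 4, 8 and 12 h (adjusted p at most 0.0385). There the list had 4 risen and 2 fallen at 8 h (15% and 9.54% of all genes). It had 3 and 2 at 12 h (16.6% and 13.1%) and 2 and 2 at 24 h (8.53% and 3.21%). RTCB, the ligase that joins the cut ends of XBP1 mRNA, fell in H1299 from 4 h onward (-0.35 at 12 h, 7.15e-05) and was not called in H460. With array width in the model, 9 of 28 chaperones and 3 of 29 degradation genes rose in H460 at 24 h, beside 4.4% of all genes.

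**Figure D3:**
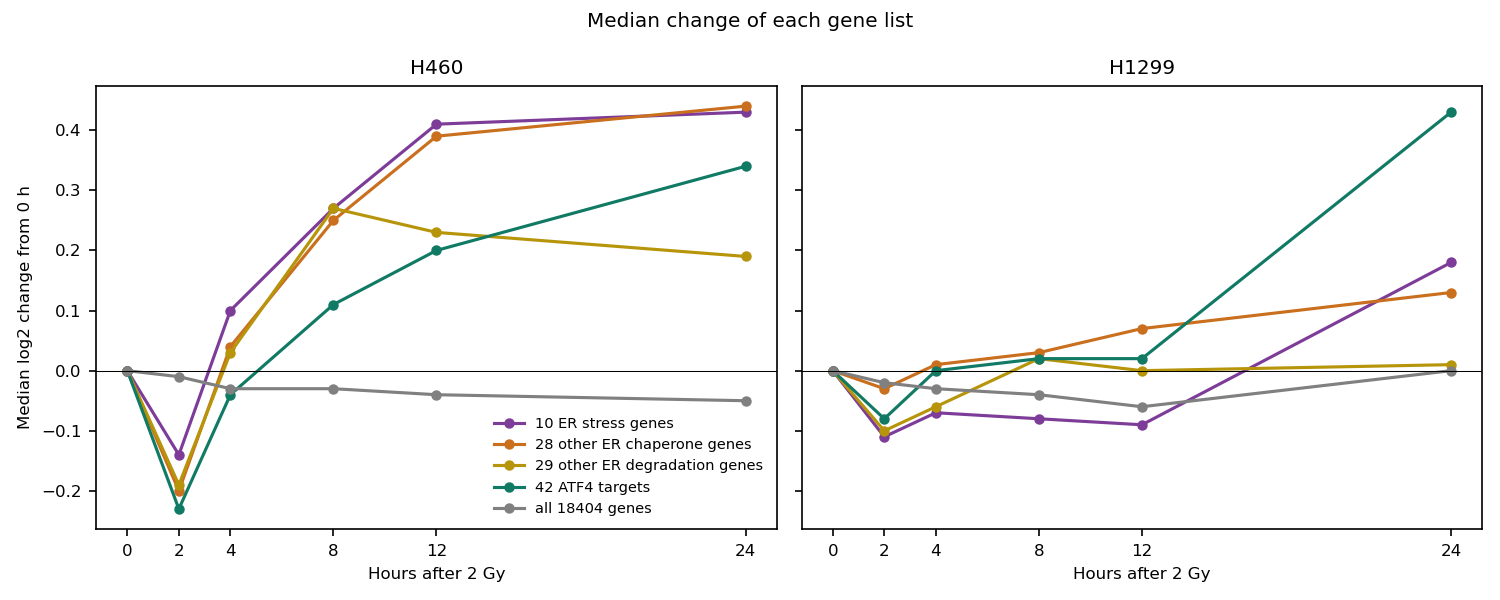
Median log2 change from 0 h of the 10 members, the 28 other ER chaperones, the 29 other ER degradation genes, the 42 ATF4 targets and all 18404 genes against hours after 2 Gy, in H460 (left) and H1299 (right). In H460 the members reach 0.27 at 8 h, when the ATF4 targets stand at 0.11; in H1299 the ATF4 targets reach 0.43 at 24 h, when the members stand at 0.18.

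The lines differed before irradiation. At 0 h 8 of 10 members were higher and 1 lower in H460 than in H1299, where 26% of all genes were higher and 29.1% lower. ATF6 differed most, with a mean of 9.68 ± 0.0994 (SD, n = 6) in H460 against 8.54 ± 0.0632 in H1299, a difference of 1.14 (SE 0.0678, 2.2-fold, adjusted p = 1.35e-11). HSPA5 was 0.79 higher (SE 0.0751, adjusted p = 1.88e-08), XBP1 0.72 higher (4.67e-08) and EIF2AK3 0.65 higher (6.04e-06), with no overlap between arrays of the lines. Of all genes 14.4% had every H460 array above every H1299 array at 0 h, and 20.9% had every one below. The other differences called were 0.43 for EDEM1, 0.37 for HERPUD1, 0.33 for SDF2L1 and 0.27 for HSP90B1, with overlapping arrays for HERPUD1 and SDF2L1. DNAJB9 was lower in H460 (difference -0.59, SE 0.11, adjusted p = 0.000117), and ERN1 did not pass the test (difference -0.1, 95% confidence interval -0.28 to 0.08).

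The response itself differed between the lines for 15 of 50 pairs of member and hour, tested as the H460 change minus the H1299 change over all 42 arrays. At 8 h 5 of 10 members had the higher change in H460 and 0 the lower, against 6.56% and 3.55% of all genes. At 12 h the counts were again 5 and 0 (5.21% and 3.47%). At 4 h they were 2 and 0 (3.21% and 5.33%), at 24 h 1 and 0 (7.75% and 4.7%), and at 2 h 0 and 2 (10.2% and 18.5%). The difference at 24 h was thus called for ATF6 alone (0.48, adjusted p = 0.00164), although 6 members rose in H460 and 4 in H1299.

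HERPUD1 had the largest difference, 1.04 at 8 h (SE 0.155, adjusted p = 1.9e-05), from a change of 0.66 in H460 and -0.38 in H1299, and 0.93 at 12 h (7.23e-05). XBP1 differed by 0.4 at 4 h (0.00837), 0.57 at 8 h (0.000178) and 0.36 at 12 h (0.0162). HSPA5 differed by 0.44 at 8 h (0.00993) and 0.39 at 12 h (0.0253), ATF6 by 0.4 at 8 h (0.0125) and 0.44 at 12 h (0.00624), and SDF2L1 by 0.76 at 12 h (0.00856). DNAJB9 differed by 0.61 at 4 h (0.0401) and 0.59 at 8 h (0.041), with its fall in H1299 the larger part.

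These differences at 4 to 24 h kept their calls with array width in the model, with 0.98 for HERPUD1, 0.56 for XBP1, 0.4 for HSPA5 and 0.37 for ATF6 at 8 h. Those of EDEM1 (-0.61, adjusted p = 0.00455) and EIF2AK3 (-0.58, 0.00615) at 2 h did not (-0.23, 0.453, and -0.18, 0.565). HERPUD1, SDF2L1, EDEM1, XBP1 at 4 and 8 h, HSPA5 at 8 h and ATF6 at 12 and 24 h also kept them whichever single array was left out. The other calls were lost without 1 array: HSPA5 at 12 h without H460 replicate 1 or 3 or H1299 replicate 1 or 3 of that hour (adjusted p up to 0.083), XBP1 at 12 h without H460 replicate 2 or H1299 replicate 2 or 3 of that hour (up to 0.0573), ATF6 at 8 h without the H1299 8 h replicate 1 (0.32, 0.074) and EIF2AK3 at 2 h without the H460 2 h replicate 3 (-0.4, 0.0729). For DNAJB9 the call was lost without any 1 of 8 arrays at 4 h (up to 0.174) and of 11 arrays at 8 h (up to 0.162).

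**Figure D4:**
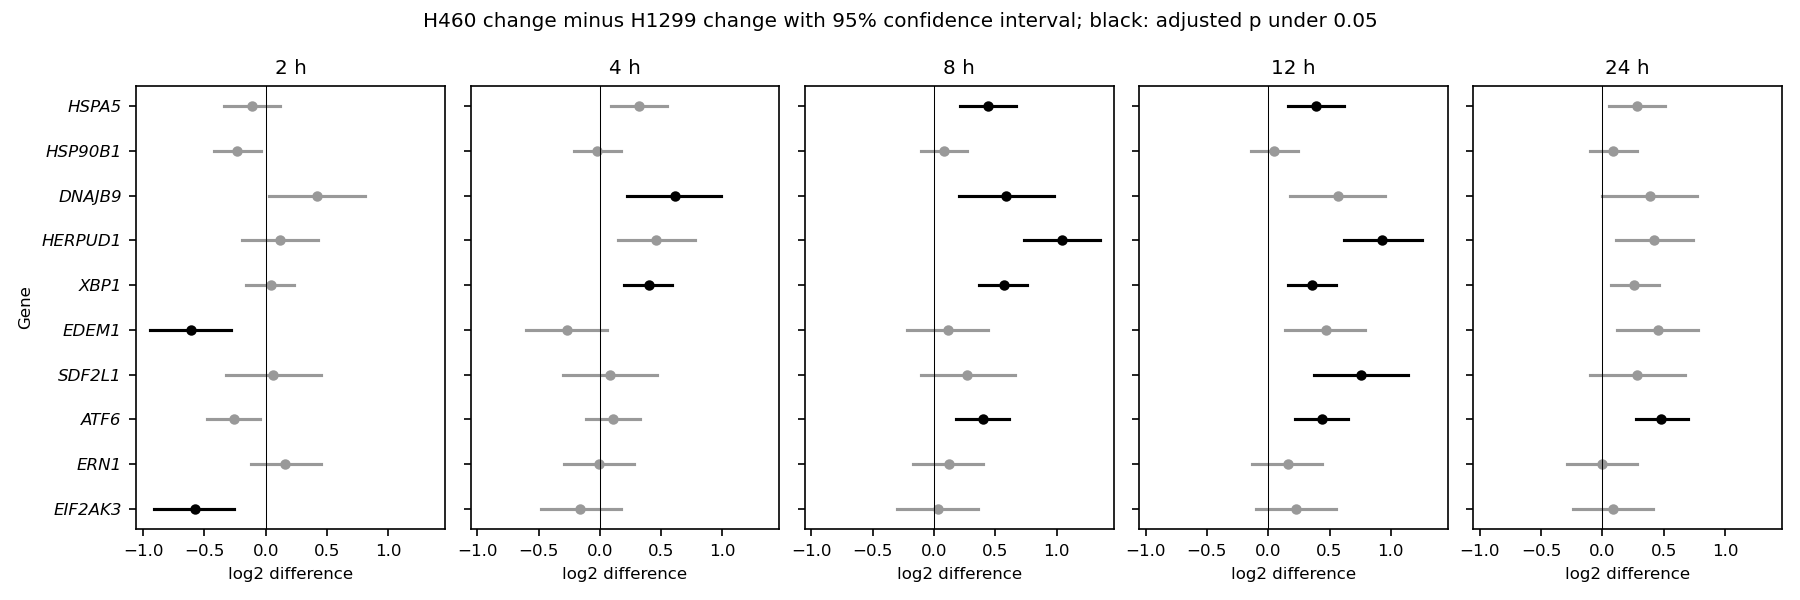
Difference between the lines in the log2 change from 0 h (H460 change minus H1299 change) for each of the 10 genes at each hour, with 95% confidence intervals as bars and black where the adjusted p was under 0.05. At 8 h HERPUD1 lies at 1.04 and XBP1 at 0.57, whereas HSP90B1 (0.08) and ERN1 (0.12) have intervals that include 0.

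From 8 h onward the differences between the lines ran the same way for other ER chaperone and degradation genes. For ATF4 targets they ran both ways at 8 and 24 h. Of the 28 other chaperones, 8 at 8 h, 9 at 12 h and 9 at 24 h had the higher change in H460 and 0 the lower. For the 29 degradation genes the counts were 7, 6 and 6, and 0. Of all genes 6.56%, 5.21% and 7.75% were higher and 3.55%, 3.47% and 4.7% lower at these hours. At 2 h 10 chaperones and 9 degradation genes were called in either direction (28.6% of all genes), and at 4 h 3 and 4 (8.54%). Of the 15 signalling genes 1, 2 and 2 were called at 8, 12 and 24 h. Of the 42 ATF4 targets, 4 were higher and 3 lower at 8 h, 6 and 0 at 12 h, and 3 and 8 at 24 h. CHAC1, DDIT4 and STC2, the last a secreted glycoprotein, were among the 8 whose change at 24 h was lower in H460, and CTH among the 3 whose change was higher. Whether the lists differed from one another was not tested.

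**Figure D5:**
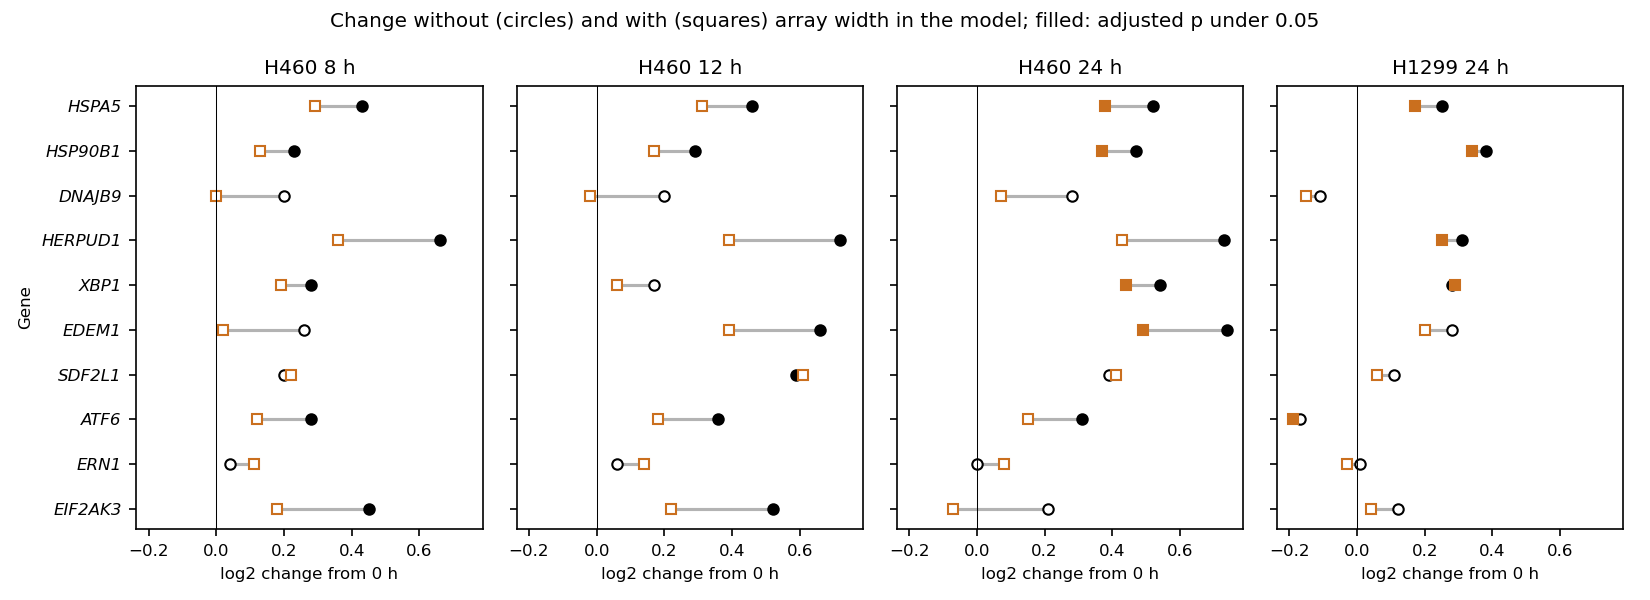
Log2 change from 0 h of the 10 genes in H460 at 8, 12 and 24 h and in H1299 at 24 h, as circles without and squares with array width in the model, filled where the adjusted p was under 0.05. In H460 no square is filled at 8 or 12 h and 4 are at 24 h (HSPA5, HSP90B1, XBP1 and EDEM1). With width 0.397% of all genes were called up and 0.321% down at 8 h, and 1.6% and 1.81% at 12 h. In H1299 at 24 h the 4 rises are filled in both models.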

How the data were processed

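The 42 arrays were hybridised with target made from 100 ng of total RNA, per the labels' protocols. The authors deposited 1 table of log2 values, whose background correction, normalization and summary method are not given in the sources used here. It has 32321 rows: 19158 with 1 gene symbol in the platform's probe table, 1388 with several and 11775 unlisted. Symbols were updated by gene ID for 19128 rows, the row with the highest mean over all arrays stood for a gene (754 rows left out), and 18404 genes were tested with no filter. Array medians lay between 5.97 and 6.18, and 0 pairs of arrays were identical. The number of arrays limits the precision.

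Tests were run with limma 3.58.1 in R 4.3.3 (lmFit, eBayes with trend): changes from 0 h and quadratic regression on hours over the 21 arrays of a line, the difference of changes over all 42 arrays, and 0 h over 12 arrays. P-values were adjusted by the Benjamini-Hochberg method across the genes of a comparison, and 0.05 was the threshold. The p-values measure the spread between arrays that the labels call biological replicates. The fits were checked on simulated data with independent noise for each gene and no effect shared by an array. That check therefore does not cover array width. Replicate numbers did not pair the arrays: correlations of same-numbered deviations ran from -0.37 to 0.197.

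The 10 members and the gene lists were chosen with earlier results of these data known. All members are named. Up to 4 genes of each other list and line with the smallest quadratic p, the ATF4 and eIF2 kinase list and 6 ATF4 targets may be named too, with KRT8, KRT18, KRT19, EPCAM, COL1A2, LUM, CD3E and CD68 among the markers. Of the lists, PDIA3, TXNDC5 and CBS and some others are not analysed here. Other settings were 2 normalizations, a filter on dim genes, 2 variance models, a replicate block, array width, another row per gene, subsets of arrays and other models of time. Leaving out the 3 H460 arrays at 2 h was chosen after seeing the data. Promoter sequences are from RefSeq.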

Additional observations from a re-analysis of the deposited data

Results flagged for a closer look

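In HSPA5, the H1299 array of 0 h replicate 2 read 10.73, far below the nearest other 0 h array (11.03). It was 1 of 20 groups of 6 arrays examined that had such an array, where chance gives about 1 in 20.

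The change from 0 h differed between the lines, by a test of the difference itself (limma over all 42 arrays, adjusted p under 0.05), for 15 of 50 pairs of member and hour. Given as the H460 change minus the H1299 change, HERPUD1 differed by 1.04 at 8 h and 0.93 at 12 h. XBP1 differed by 0.4 at 4 h, 0.57 at 8 h and 0.36 at 12 h. HSPA5 differed by 0.44 at 8 h and 0.39 at 12 h. ATF6 differed by 0.4 at 8 h, 0.44 at 12 h and 0.48 at 24 h. DNAJB9 differed by 0.61 at 4 h and 0.59 at 8 h, and SDF2L1 by 0.76 at 12 h. EDEM1 (-0.61) and EIF2AK3 (-0.58) differed at 2 h, with the lower change in H460.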

How the results depend on the processing

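Among the counts of members called, those at 0 h (9 of 10) and in H460 at 12 h (7) were the same whichever array was left out. Shares of all genes under another setting are given here only for changes and differences with array width in the model. Quantile normalization gave 2 members at 8 h in H460 (6 as reported), 2 at 2 h in H1299 (1) and 4 for the difference between the lines at 4 h (2), and centring on the median also gave 4 there. Without the dimmest genes (12269 kept) the counts were 2 in H1299 at 2 h and, for the difference, 2 at 24 h (1) but 4 at 2 h (2). Array weights gave 1 in H460 at 4 h (0), 4 in H1299 at 2 h, and a difference for 4, 4 and 6 members at 2, 4 and 24 h. With the replicate number as a block, which does not pair these arrays (5 of 18 arrays in H460 and 3 of 18 in H1299 correlated best with their own number), the counts were 3 in H460 at 8 h, 0 in H1299 at 2 h and 2 in H1299 at 12 h (4). With array width in the model they were 0 in H460 at 2, 8 and 12 h and 5 in its quadratic course (8). At those 3 hours this model called 0%, 0.397% and 1.6% of all genes up and 0%, 0.321% and 1.81% down. In H1299 the counts with width were 3 at 2 h and 2 at 12 h. There this model called 10.4% and 9.2% of all genes up and 11.8% and 8.53% down. The difference between the lines was called with width for 0 members at 2 h and 4 at 4 h. Of all genes 1.96% and 5.49% were higher in H460 and 3.65% and 7.23% lower. ATF4 targets called in H460 at 24 h fell from 26 to 12. With 0 h replicates 1 to 3 alone the counts of members called were 3 in H460 at 8 h and 0 and 2 in H1299 at 2 and 12 h. With replicates 4 to 6 alone the count was 2 in H460 at 8 h. A fit over all 42 arrays gave 0 and 2 in H1299 at 2 and 24 h. Without the 3 H460 arrays at 2 h, chosen after seeing the data, the difference was called for 4 members at 4 h and 4 at 24 h. Leaving out 1 array at a time gave 2 to 4, 0 to 0, 2 to 7, 7 to 7 and 5 to 7 members in H460 at 2, 4, 8, 12 and 24 h, 0 to 3, 1 to 4, 2 to 5, 1 to 5 and 3 to 5 in H1299, and 1 to 4, 1 to 4, 3 to 5, 3 to 7 and 1 to 5 for the difference. Directions that turned were those of ATF6 (0.02), EDEM2 (0.26), ERN2 (-0.03), SEC62 (0.15) and TMBIM6 (0.09) in H460 at 2 h with array width, and those of ATF4 by its second entry, in H460 at 24 h (-0.42) and in the difference at 4, 8 and 12 h (-0.09, -0.09 and -0.01). Where a fit used fewer arrays or genes its power differed too; otherwise the cause was not tested. The values carry no detection calls, so what signal over background limits cannot be given. Members have 1 entry each, so another entry cannot change their values.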

Other observations

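Over the 12 group means, each line centred on its own mean, HSPA5 and HERPUD1 followed each other with a Pearson correlation of 0.93, HSPA5 and HSP90B1 with 0.91, and HSPA5 and ERN1 with 0.22. Among all genes the patterns most like that of HSPA5 were those of PLA2G7 (0.978), WASHC3 (0.975) and PRDX6 (0.975). For HERPUD1 they were DSTN (0.968), CAMLG (0.964) and TXNL4A (0.96), and for DNAJB9 they were GRINA (0.908), MAGEH1 (0.899) and UQCRQ (0.897). All points share their arrays, so these values describe likeness over 12 means and carry no p.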
